A study of Drosophila melanogaster with 3 samples.

Results

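The ecdysone receptor genes EcR and usp and 8 genes of the transcription factor cascade that follows a pulse of the hormone ecdysone, br, Eip74EF, Eip75B, Eip78C, Eip93F, Hr3, Hr4 and ftz-f1, were examined for regions recovered with the chiffon protein in fly embryos. The 10 genes were taken by name from the 13968 protein-coding genes of the annotation. A region was assigned to a gene when its summit lay inside the gene or within 5 kb of it, and 45 of the 5035 regions in the thresholded list met that rule, each for 1 of the 10 genes. That list is the authors' selection of pooled regions by the irreproducible discovery rate, which scores whether a region keeps its rank from replicate to replicate. Chromatin came from whole Drosophila melanogaster embryos, pooled males and females, collected between 0 and 24 hours of age. The embryos were of a stable transgenic line, strain chif-RB-GFP, that carries chiffon (chif) with GFP at its C-terminus, and an anti-GFP antibody recovered the fusion with its DNA after sonication to 200 to 800 bp. The note on the fusion names chif-RB for replicate 1 and chif for replicates 2 and 3. The 3 biological replicates, labelled as separate biosamples, form 1 group, so there is no comparison between conditions and no p-value, and an untagged library was not analysed here.

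Ecdysone is the steroid hormone that times moulting and metamorphosis in insects, and a pulse of it also occurs in the middle of embryogenesis, where it is needed for later morphogenesis. The hormone binds EcR, which acts as a heterodimer with Ultraspiracle (usp), a relative of the vertebrate retinoid X receptor, and the bound pair switches on early genes that encode transcription factors. Those factors in turn regulate one another and a larger set of late genes, and many of the early genes have long introns and several alternative promoters. Chiffon is related to Dbf4, the regulatory subunit of the Cdc7 kinase that fires origins of DNA replication. The gene has more than a single protein product, with another part tied to the histone acetyltransferase Gcn5, and the labels do not settle which of them the GFP tag follows.

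All 10 genes had at least 1 thresholded region, whereas only usp and Eip75B had one within 500 bp of a transcription start site (TSS) of their own. The DNA at these sites is shown first because it marks the only 2 start sites of the group in the list. Each sequence is the exon-free part of the 201 bp window centred on the summit, and in both cases the summit itself lies outside it. The sequences are given on dm6 (Release 6, sequence from the RefSeq copy of that assembly), read 5′ to 3′ on the strand of the gene. The Eip75B stretch, chr3L:17999822-17999887 on the minus strand, ends directly before the start site of transcript Eip75B-RC, and its capitals mark the reverse complement of the GAGA motif GAGAG. The usp stretch, chrX:2041406-2041460 on the minus strand, lies between the start of transcript usp-RA and the summit upstream of it. Its capitals mark the reverse complement of the TATA motif TATAAA. The start itself, at 2041312, is outside the stretch, so the label below names the promoter and not a position within the letters.
Eip75B start site: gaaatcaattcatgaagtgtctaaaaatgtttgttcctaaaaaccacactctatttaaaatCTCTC
usp start site: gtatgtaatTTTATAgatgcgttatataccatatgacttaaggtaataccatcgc

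The other 3 sequences are 201 bp windows centred on the summit of the strongest intronic region of Hr4, Eip75B and br. They were chosen after the values were seen, because most regions of the group lie in introns and the Hr4 window holds the second-strongest of all 45. The Hr4 window is chrX:1947650-1947850 on the plus strand and the Eip75B window is chr3L:18005089-18005289 on the minus strand, with capitals at TATAAA in both. The br window is chrX:1618796-1618996 on the plus strand, and its capitals mark TATCG, the reverse complement of the BEAF core CGATA.
Hr4 intron, rank 99: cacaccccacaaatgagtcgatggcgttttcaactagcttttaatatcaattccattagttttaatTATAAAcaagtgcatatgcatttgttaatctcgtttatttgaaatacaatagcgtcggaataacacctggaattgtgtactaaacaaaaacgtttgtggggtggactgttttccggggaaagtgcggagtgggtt
Eip75B intron, rank 340: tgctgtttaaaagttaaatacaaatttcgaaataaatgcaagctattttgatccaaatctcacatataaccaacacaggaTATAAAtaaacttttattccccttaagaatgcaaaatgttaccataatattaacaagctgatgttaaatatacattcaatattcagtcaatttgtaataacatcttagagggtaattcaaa
br intron, rank 1297: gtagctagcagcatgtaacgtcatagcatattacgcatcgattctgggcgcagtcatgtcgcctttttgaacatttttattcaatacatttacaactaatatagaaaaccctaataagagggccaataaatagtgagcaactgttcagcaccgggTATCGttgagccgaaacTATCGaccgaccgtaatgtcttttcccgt

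Depth is unknown, since the deposited lists hold regions and no read counts. Each replicate list and the pooled list hold 30000 regions, and the thresholded list is the 5035 strongest of the pooled ones. Signal means the score the authors gave each region, and it serves here only to rank regions within a list, where rank 1 is the strongest. A thresholded region is called backed by a replicate when the summit of one of that replicate's own 5035 strongest regions lies inside it. It is called listed when any summit of the replicate's whole list does. At the chif locus the best region ranked 10 in the thresholded list, with ranks of 10, 17 and 10 in replicates 1, 2 and 3, and reads of the transgene cannot be told apart there from those of the native gene. General recovery of open chromatin and binding of chiffon cannot be told apart without an untagged library.

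Having a region nearby was common among all genes. Of all protein-coding genes 49.8% had a thresholded summit inside or within 5 kb, and of the 1020 genes of 20 kb or longer 67.6% did, against 10 of the 10 genes here. Of these, 9 are at least 20 kb long, and the median length of the 10 genes, 63040 bp, compares with 2164.5 bp over all protein-coding genes. The long genes do not match the members in length either, with a median of 37213.5 bp beside 65426 bp for the 9 long members. A region at a start site was found in 2 of 10 genes, close to the 20.6% of all protein-coding genes and 28% of the long ones. Counted by promoter, with start sites of 1 gene within 300 bp merged, 2 of 35 promoters carried a thresholded summit within 500 bp, against 17.6% of the 17794 promoters of protein-coding genes and 14.7% of the 2297 promoters of long genes. The other 8 long members had regions but none at a start site of their own, as did 404 (39.6%) of all long genes. In the whole pooled list of 30000 regions, 14 of the 35 promoters had a summit within 500 bp. Over all 17794 promoters of protein-coding genes that share was 48.9%.

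The 45 regions lay mostly inside introns. Relative to the gene they were assigned to, 33 summits were intronic, 2 lay at a TSS, 1 in the 5′ UTR of EcR, 1 in the 3′ UTR of Hr4, 2 upstream and 6 downstream. The distance to the nearest start site of the same gene ran from 34 to 46645 bp with a median of 8302 bp, and 31 of the 45 summits were more than 5000 bp away. With start sites and introns of all genes considered, 9 of 45 (20%) lay within 500 bp of any TSS, against 47.4% of all thresholded regions and 32.7% of the 1987 regions at long genes. An intron without a TSS within 500 bp held 34 of 45 (75.6%), against 34.1% of all regions and 57.9% of those at long genes.

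Of the 8 regions in the flanks, 7 lay within 500 bp of the start site of a neighbouring gene, so their assignment to the ecdysone genes rests on distance alone. The region upstream of Eip74EF was 30 bp from the TSS of Vps60, that downstream of br 80 bp from CG3740, that downstream of ftz-f1 60 bp from Nufip, and that downstream of usp 462 bp from Actn. At Hr4 the upstream region was 117 bp from CG3857, and 2 downstream regions that overlap each other were 267 and 59 bp from lncRNA:CR45478. The last flank region, downstream of Hr4, was 551 bp from the TSS of east and inside that gene.

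**Figure D1:**
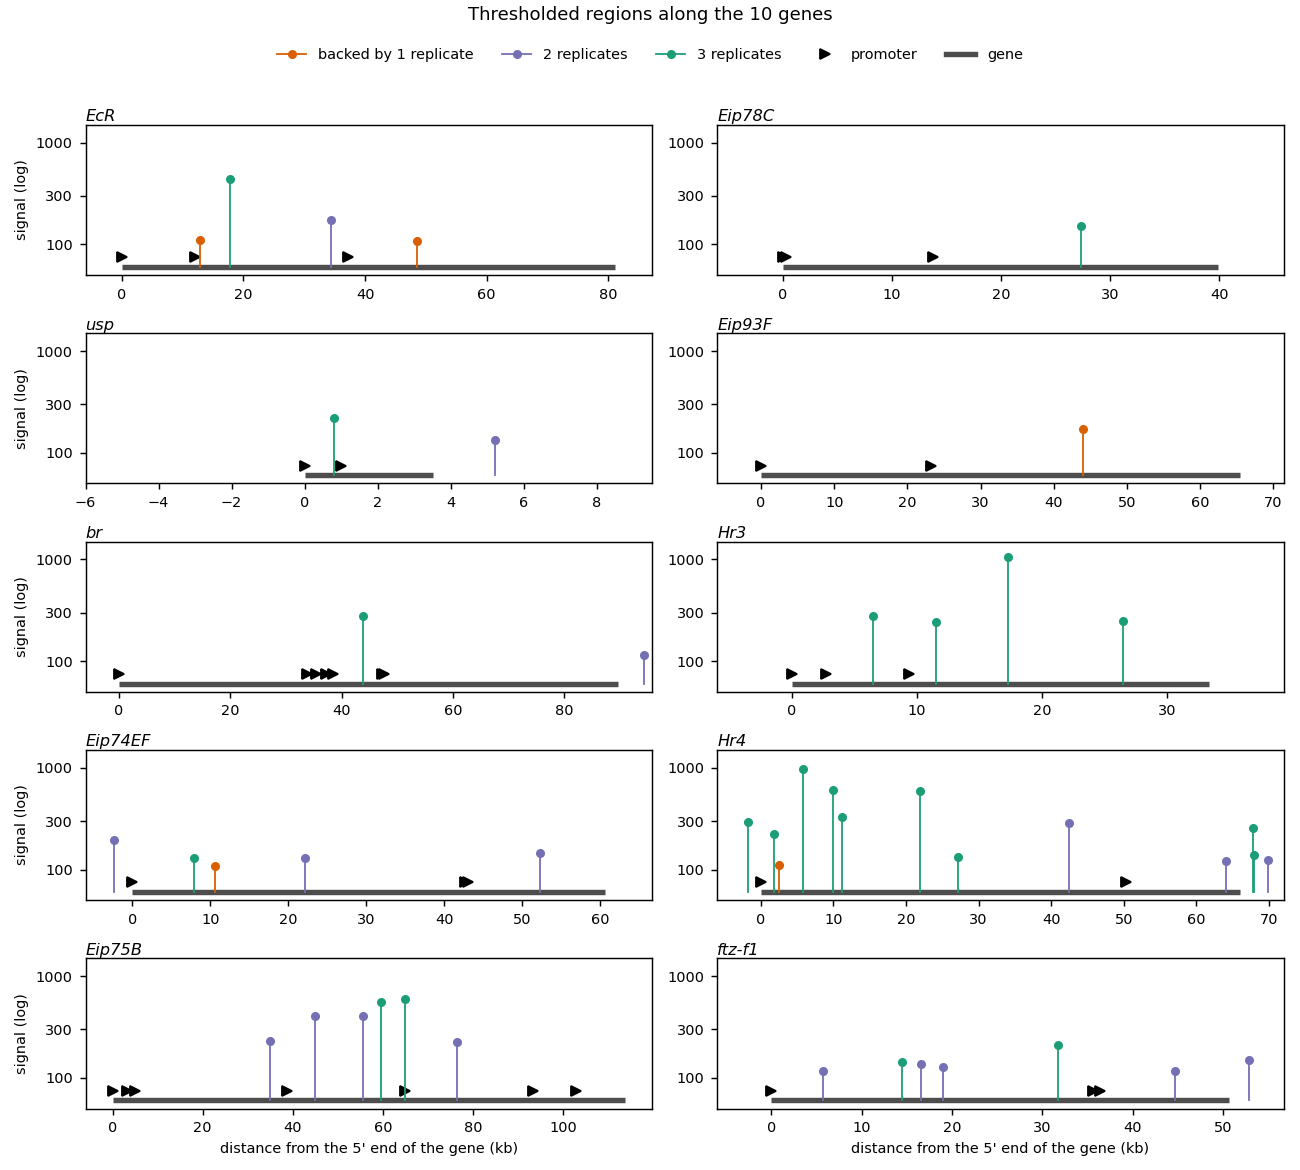
Thresholded regions along each of the 10 genes, drawn 5′ to 3′ with distance from the gene's 5′ end in kb on the x axis and the authors' signal on a log y axis. Stems are region summits coloured by how many replicates backed them, arrowheads are promoters and the grey bar is the gene; stems coincide with an arrowhead at Eip75B promoter 5 and stand close to usp promoter 2, while the highest stems, 1055 in Hr3 and 964.6 in Hr4, stand inside introns.

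The signal of the 45 regions ran from 107.6 to 1055 with a median of 196.5, beside a median of 179.2 over the whole list. Their ranks ran from 80 to 4946, with 6 regions among the 500 strongest and 22 below the middle of the list. The 34 regions in an intron of any gene without a TSS within 500 bp had a median signal of 218.5. Over all such regions of the list it was 174.8. Region width was 410 bp in 32 of the 45, and the narrowest was 102 bp.

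EcR, which encodes the hormone-binding partner of the receptor pair, carried 4 regions in its 81215 bp on the minus strand of chromosome arm 2R (dm6, 6087873 to 6169087), and none at a start site. The strongest, at 6151103 to 6151348, had a signal of 443.4 and rank 542 and lay in an intron 5877 bp downstream of promoter 2. Its rank was 737 in replicate 1, 823 in replicate 2 and 416 in replicate 3, so it was among the strongest 1000 regions of every replicate. The other 3 stood lower, 1 near the middle of the list at rank 2618 and the others at ranks 4814 and 4946. None of these 3 was backed by replicate 2, which did not list the regions at ranks 2618 and 4946 at all.

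The 3 promoters of EcR, which start transcript RA, transcripts RD and RE, and transcripts RB, RC and RG, had no thresholded summit within 500 bp. At promoter 2 the nearest summit was the 5′ UTR region at rank 4814, 869 bp downstream. Below the threshold the pooled list ranked summits at promoters 1, 2 and 3 at 10775, 7559 and 18320. The replicates did not order them alike: promoter 1 was listed by replicates 1 and 3 (ranks 7505 and 8827), promoter 2 by replicates 2 and 3 (2643 and 6402) and promoter 3 by replicate 3 alone (11674).

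At usp, the partner of EcR and the shortest gene of the group at 3514 bp (X, 2038798 to 2042311, minus strand), the alternative promoters differed in rank. The region at 2041301 to 2041710 had a signal of 217.4 and rank 1905, with its summit 194 bp upstream of promoter 2, the start of usp-RA. In replicates 1, 2 and 3 the strongest summit there ranked 1735, 1894 and 2170. At promoter 1, the start of usp-RB 999 bp away, the strongest pooled summit ranked 7625, and the replicates placed it at 9293, 9011 and 11408. Promoter 2 thus stood higher in 3 of 3 replicates. The same summit lies inside the overlapping gene Actn and 362 bp from the start of CG4313, and which of these genes the region belongs to cannot be told from its position. The downstream region of usp, at rank 3762, was backed by replicates 1 and 2.

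Among the early genes, br (Broad) encodes BTB zinc-finger transcription factors that specify the pupal stage, and it carried a single region inside its 89738 bp (X, 1575132 to 1664869, plus strand). This intronic region, the br window printed above, had a signal of 279.7 and rank 1297, and lay 3412 bp before promoter 6. It is inside the overlapping gene Mur2B and 741 bp from a start site of Mur2B, nearer than any br start. Its ranks were 1485, 634 and 2262, so replicate 2 placed it highest. None of the 7 br promoters had a summit within 500 bp in the pooled list, which held one at 48.9% of all promoters of protein-coding genes. Among the replicates only replicate 2 listed one, at promoter 7 with rank 15738. Promoter 4, where 9 of the 16 transcripts start, was not listed by any replicate.

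Eip74EF, which encodes an ETS-domain transcription factor, carried 4 weak intronic regions (ranks 3365 to 4918) in 60654 bp of 3L (17558672 to 17619325, minus strand), besides the upstream region shared with Vps60 at rank 2218. The region at 17611175 to 17611584 had a signal of 128.7 and was the only one of the 5 backed by all 3 replicates, with ranks of 4281, 2562 and 3179. At the distal promoter 1, which starts transcripts RA, RC and RE, the pooled summit ranked 6787. Promoters 2 and 3 lie 306 bp apart and share a single pooled summit at rank 9404. Replicates 1 and 3 ranked promoter 1 above the shared summit (9927 against 28132, and 5763 against 8873), and so did replicate 2 (20507 against 22697). In replicate 2 the signals behind these ranks, 13.6 and 13.03, hardly differed. All of these summits fall below the threshold.

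Eip75B encodes a heme-binding nuclear receptor related to the vertebrate Rev-Erb proteins and is the longest gene of the group, with 113744 bp on 3L (17950953 to 18064696, minus strand). It has 7 promoters, 1 for each annotated transcript, and 6 thresholded regions, all inside the gene and all in its central part between promoters 3 and 6. The region at 17999639 to 17999949 had a signal of 592.7 and rank 297, and its summit lay 34 bp downstream of promoter 5, the start of Eip75B-RC. It ranked 260 in replicate 1, 667 in replicate 2 and 260 in replicate 3. No other Eip75B promoter came close. At promoters 1 and 2 the pooled list held summits at ranks 22421 and 14451, at promoters 3, 4, 6 and 7 it held none, and across the replicates the best rank at any of those 6 was 8034. Promoter 5 was therefore the strongest of the 7 in 3 of 3 replicates, although replicate 2 listed only 1 of the other 6 (promoter 3, rank 16665).

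The 5 intronic regions of Eip75B ranked from 340 to 1781. The strongest, at 18005040 to 18005240, had a signal of 560.9, lay 5368 bp upstream of promoter 5 and ranked 410, 345 and 280 in replicates 1, 2 and 3. The other 4 were high in replicates 1 and 3 and missing from replicate 2. At 18019720 to 18019916 the signal was 405.3, with rank 580 in replicate 1 and 369 in replicate 3, and at 18009069 to 18009281 it was 410.7, with ranks 771 and 646. Neither of these, nor the regions at thresholded ranks 1729 and 1781, appeared among the 30000 regions of replicate 2.

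**Figure D2:**
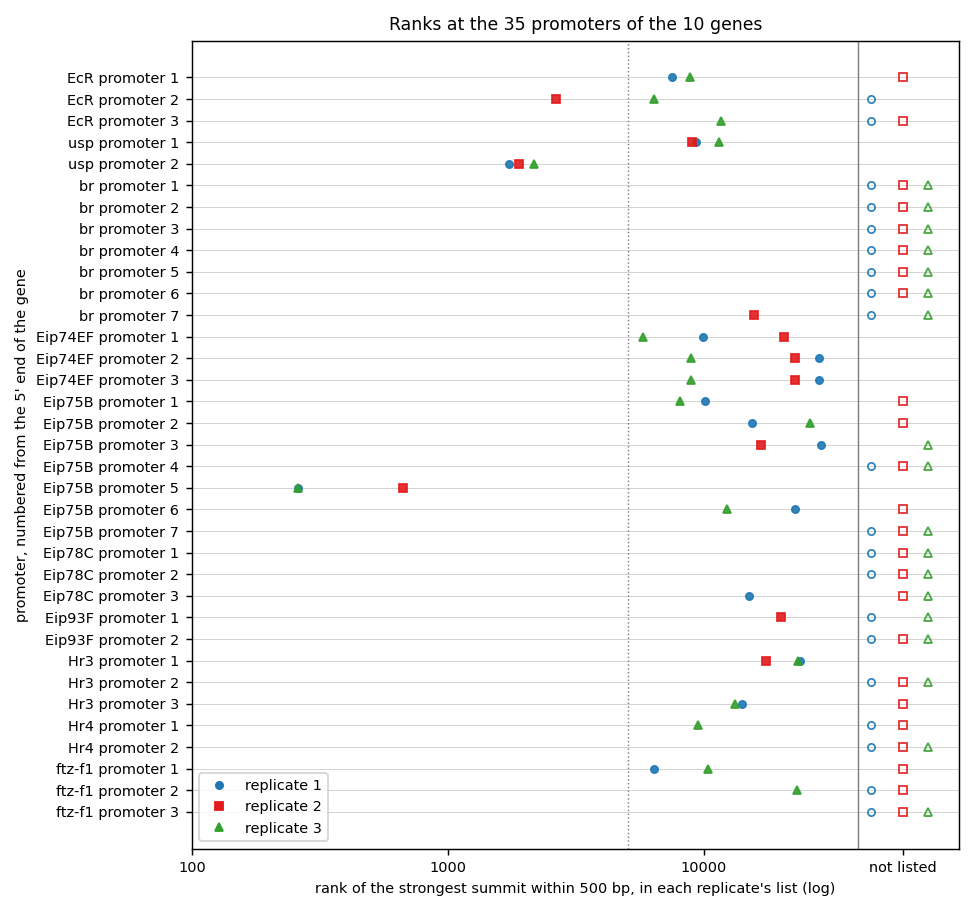
Rank of the strongest summit within 500 bp of each of the 35 promoters (rows, numbered from the 5′ end of each gene), on a log x axis with strong ranks to the left. Filled symbols are the 3 replicates, open symbols at the right are replicates that listed no summit there, and the dotted line is rank 5035; Eip75B promoter 5 (ranks 260, 667 and 260) and usp promoter 2 (1735, 1894 and 2170) are left of the line in every replicate, and EcR promoter 2 is left of it in replicate 2 alone.

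Eip78C encodes a nuclear receptor related to that of Eip75B and carried a single region in 39895 bp of 3L (21226609 to 21266503, plus strand). This intronic region, 21253701 to 21254110, had a signal of 151.3 and rank 3198, lay 13559 bp downstream of promoter 3 and ranked 2688, 3229 and 3462 in the replicates. Although weak, it was backed by all 3. None of the 3 promoters had a pooled summit, and the only replicate entry was at promoter 3 in replicate 1, at rank 14944.

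Hr3 encodes a nuclear receptor related to the vertebrate ROR proteins that represses early genes and activates ftz-f1, and it held the strongest region of the group. The gene spans 33354 bp of 2R (10203995 to 10237348, minus strand) and carried 4 intronic regions, all backed by all 3 replicates. The region at 10219894 to 10220265 had a signal of 1055 and rank 80, and its ranks were 82 in replicate 1, 57 in replicate 2 and 101 in replicate 3. It lay 7901 bp downstream of promoter 3. The other 3 ranked 1303, 1547 and 1604. All 4 summits are also inside CG12912, 3 of them inside CG46321 and 1 inside lncRNA:CR46322, so these overlapping genes share the regions with Hr3. At the promoters themselves the best entry was a pooled summit at rank 10046, 16 bp from promoter 3, which starts RA, RF and RH.

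Hr4, which encodes a nuclear receptor related to vertebrate germ cell nuclear factor, had more regions than any other member. Of its 13 regions, 9 lay inside its 66017 bp (X, 1941940 to 2007956, plus strand). Only 6 of all protein-coding genes, Hr4 included, had 13 or more inside or within 5 kb. That count takes in the flank regions described above, whose assignment rests on distance. By regions inside the gene, other long genes held more than the 9 of Hr4, among them sbb with 13 and Raf and Tlk with 11 each. The highest such count over all long genes was 20. Among the inside regions, 8 fell between its 2 promoters, which are 50360 bp apart, and the last lay in the 3′ UTR.

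The strongest Hr4 region, 1947583 to 1947899, had a signal of 964.6 and rank 99 and ranked 140, 170 and 65 in replicates 1, 2 and 3. Another at 1951790 to 1952052, with signal 608.6 and rank 278, ranked 253, 629 and 220. The region at 1963805 to 1964096, with signal 590.9 and rank 300, ranked 365, 221 and 323. All of these were thus among the strongest 1000 in every replicate, at 5810, 9988 and 21987 bp from promoter 1. The intronic region at rank 966 was also backed by all 3 replicates (1262, 765 and 975). The region at 1984318 to 1984419, the narrowest of the 45, and the 3′ UTR region were missing from replicate 2, while replicates 1 and 3 both backed them.

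In contrast to these introns, the Hr4 promoters had few entries. Promoter 1, which starts 7 of the 9 transcripts, had a pooled summit at rank 24633 and an entry in replicate 3 alone (rank 9521), and promoter 2 had no entry in any list. The 2 overlapping downstream regions at lncRNA:CR45478 held the same summit of replicates 1 and 2 (ranks 1752 and 1540) and separate summits of replicate 3 (1193 and 2459). Their backing by replicates 1 and 2 is therefore not independent.

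The orphan receptor gene ftz-f1, whose product gives tissues the competence to respond to the next ecdysone pulse and whose maternal form is a cofactor of Fushi tarazu in the early embryo, carried 7 regions, 6 of them inside its 50703 bp of 3L (18750607 to 18801309, minus strand). Between promoters 1 and 2, which are 35565 bp apart, lay 5 of the 6. The strongest, at 18769357 to 18769766, had a signal of 212.5 and rank 1989, and ranked 2053, 1196 and 2674 in the replicates. The others ranked 3412 to 4446, and of these the one at rank 3412 was backed by all 3 replicates (3107, 3175 and 4354). Of the inside summits, 4 also lie in lncRNA:CR45939, whose start is next to that of ftz-f1-RB. Promoter 1, the start of ftz-f1-RB, had a pooled summit at rank 8839 with entries in replicates 1 and 3 (6376 and 10356). Promoters 2 and 3 had no pooled summit.

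Eip93F, which encodes a helix-turn-helix transcription factor that directs the adult stage of metamorphosis, rested on 1 library. Its single region (3R, 21992889 to 21993298, signal 169.9, rank 2719) lay in an intron 20715 bp downstream of promoter 2. It ranked 1425 in replicate 2 and was absent from the whole lists of replicates 1 and 3. Over the gene and its flanks, replicate 2 listed 18 regions and replicates 1 and 3 listed 1 each.

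**Figure D3:**
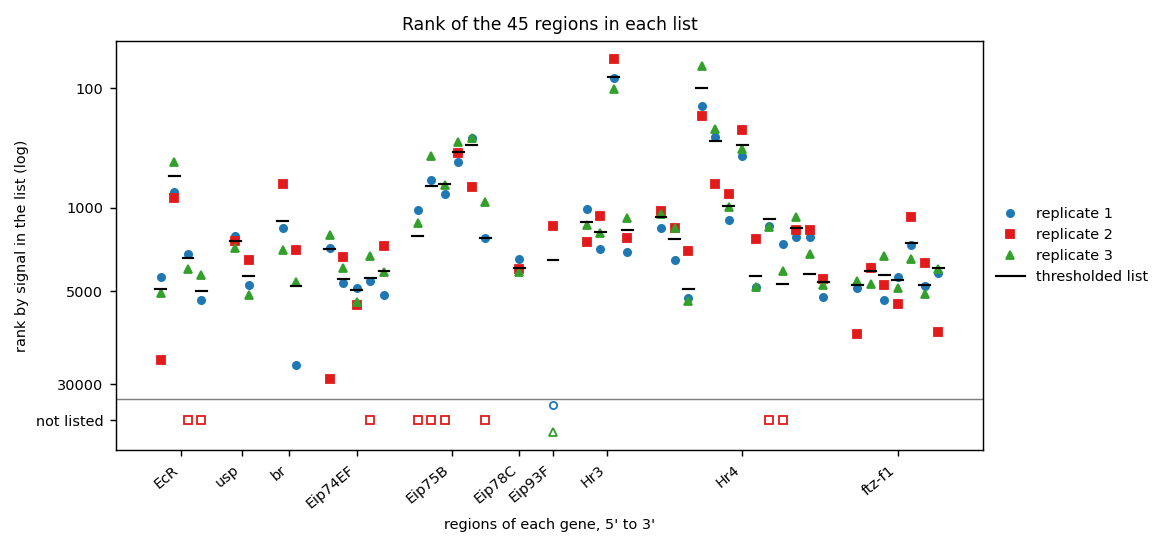
Rank of each of the 45 regions (x axis, grouped by gene and ordered 5′ to 3′) in the thresholded list (black bar) and in each replicate's list (symbols), on a log axis with strong ranks at the top. Open symbols in the lower strip are replicates that did not list the region. Replicate 2 is missing at 4 Eip75B regions and at some regions of EcR, Eip74EF (rank 3908) and Hr4. Replicates 1 and 3 are missing at the Eip93F region.

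Of the 45 regions, 22 (48.9%) were backed by all 3 replicates, against 55.9% of the whole list and 58.9% of its intronic regions. A further 18 were backed by 2 replicates and 5 by 1. By replicate, 38 were backed by replicate 1 (84.4%, against 84.9% of the list), 30 by replicate 2 (66.7%, against 69.5%) and 39 by replicate 3 (86.7%, against 88.4%). With the whole lists of 30000 allowed, 44, 36 and 44 of the 45 were listed, beside 98.7%, 82% and 99% of all thresholded regions. All 3 replicates listed 35, beside 80.4% of all thresholded regions. Hr4 with 9 of its 13 and Hr3 with all 4 of its own held 13 of the 22 regions backed by all. The 9 of Hr4 take in flank regions, namely that at CG3857 and the overlapping ones at lncRNA:CR45478. The backing of the overlapping ones by replicates 1 and 2 is not independent.

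The replicates also differed in how many regions they listed over each gene. Over the 10 genes together, replicates 1, 2 and 3 listed 206, 161 and 218 regions. Replicate 2 was low at EcR, with 12 regions against 38 and 44, and at Eip75B, with 19 against 54 and 47. It was high at br, with 22 against 7 and 5, and at Eip93F. At Eip78C it listed 13 against 10 in each of the others. More regions in replicate 2 than in either other replicate were thus seen at 3 of the 9 long members, beside 48.8% of all long genes. The medians over all long genes were 10, 12 and 10. What sets replicate 2 apart at these genes was not tested.

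**Figure D4:**
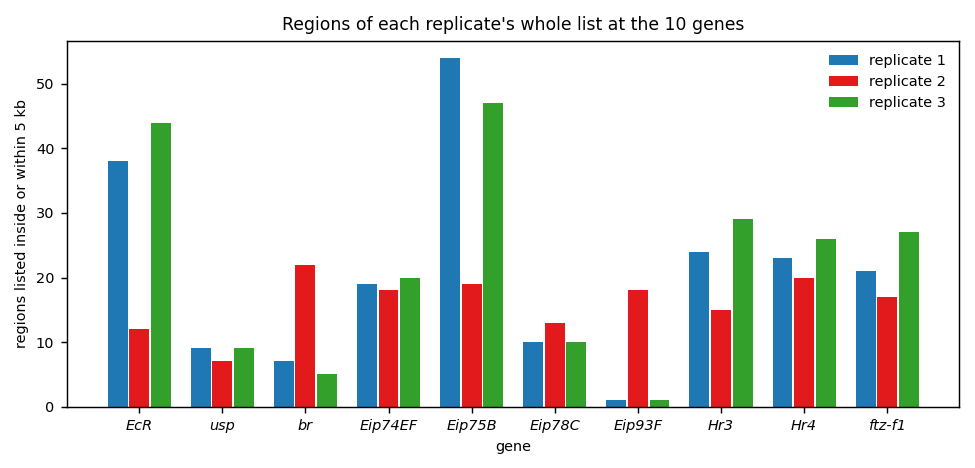
Number of regions that each replicate's whole list of 30000 holds inside or within 5 kb of each gene (y axis, bars from 0; genes on the x axis, 1 bar per replicate). Replicate 2 is lowest at EcR (12 against 38 and 44) and Eip75B (19 against 54 and 47) and highest at br (22 against 7 and 5) and Eip93F (18 against 1 and 1).

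Adjusted for length, the members differed widely among themselves. Per 10 kb, Hr4 held 1.36 regions inside the gene, Hr3 1.2, ftz-f1 1.18, Eip74EF 0.659, Eip75B 0.528, EcR 0.493, Eip78C 0.251, Eip93F 0.153 and br 0.111. The short gene usp had 2.85 from its 1 region. Over the 9 long members the median was 0.528 (quartiles 0.251 and 1.18), beside 0.112 (quartiles 0 and 0.483) over all 1020 long genes. Hr4 had a higher density than 95.4% of the long genes, Hr3 than 93% and ftz-f1 than 92.8%, whereas br stood at 49.9%.

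**Figure D5:**
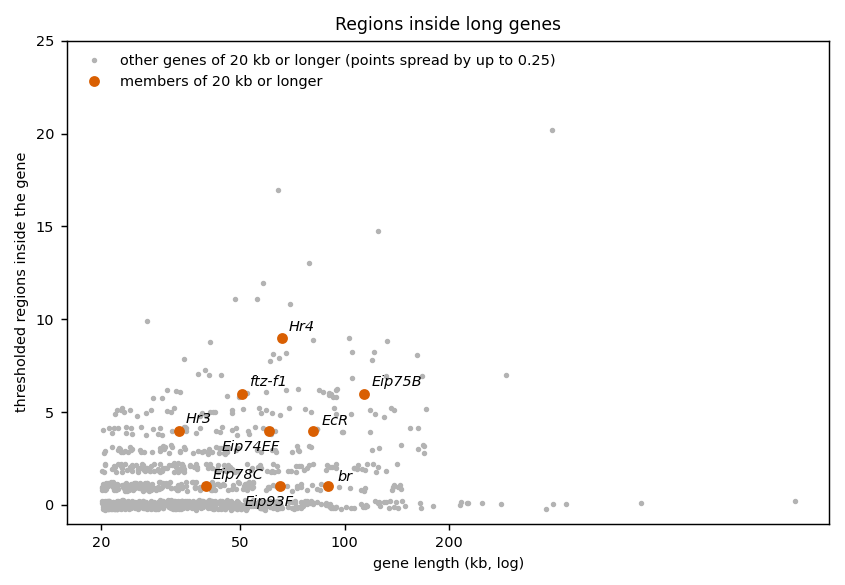
Thresholded regions inside each gene of 20 kb or longer (y axis) against gene length in kb (log x axis), with the 9 long members named and all other long genes in grey. Hr4 with 9 regions and ftz-f1 with 6 lie above most genes of like length, while br, Eip93F and Eip78C have 1 each.

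The genes nearest to Hr4 in number of regions, highest signal and gene length were sbb, Raf and Tlk, at Euclidean distances of 0.384, 0.576 and 0.743 over the log2 values of these 3 quantities. They had 15, 13 and 12 regions, with highest signals of 836.3, 1240 and 1601. The likeness is over 1 list and says nothing of shared function.

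Lists of other genes of the ecdysone pathway and of other nuclear receptors were read against the same shares of all protein-coding genes. These shares were 49.8% with a region inside or within 5 kb and 20.6% with one at a start site. Of 14 other nuclear receptor genes, 11 (78.6%) had a region and 5 (35.7%) had one at a TSS. The highest of these were Hr96 with a signal of 585.4, ERR, the estrogen-related receptor, with 321.4, and Hnf4 with 211.1. Named after their values were seen, the remaining ones were Hr39 (154.8) and eg (106.6). Of 10 receptor coregulators, 9 (90%) had a region and 5 (50%) had one at a TSS. These were Hsp83, the Hsp90 chaperone, with 333.3, the steroid receptor coactivator gene tai with 197.7 and the CBP acetyltransferase gene nej with 196.2, and also E(bx) (190) and trr (137.2).

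Genes for making, importing and clearing the hormone gave the following counts. A region lay inside or within 5 kb of 6 of 16 (37.5%), and 2 (12.5%) had one at a TSS. Those were ecd (178.5) and Oatp74D (132.3), the importer of ecdysone into cells. Of the enzyme genes, sad had 1 region (rank 1261) and shd had 2 (best rank 2025), while nvd, spo, spok, phtm, dib, sro and Cyp18a1 had none within 5 kb. Of 22 other ecdysone-induced genes, 16 (72.7%) had a region and 6 (27.3%) had one at a TSS, the highest at the transporter gene E23 (807.3), the cell death gene hid (543) and Ldh (417.7). Among the 22 are the noncoding genes lncRNA:let7C, which had a region, and asRNA:Eig63F-2, which had none, although the shares beside them are of protein-coding genes. Of 19 late and secretory puff genes, 4 (21.1%) had a region, at Sgs1, Sgs4, Fbp1 and Fbp2, and 0 had one at a TSS. Gene length differs between these lists, with medians from 645 bp for the puff genes to 13019 bp for the other ecdysone-induced genes, and its part in the shares was not tested.

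The 201 bp around each summit was searched on both strands for short motifs. The BEAF core CGATA was found in 14 of 45 member regions (31.1%), against 29.2% of all thresholded regions. GAGAG was in 17.8% against 22.1% and TATAAA in 22.2% against 32.8%. CACACA was in 13.3% against 15.8%, CAGGTA, the Zelda site, in 6.67% against 4.49%, and the E-box CACGTG in 0 of 45 against 2.14%. Among intronic regions alone, the Zelda site was in 2.94% of the 34 member regions against 5.07% of all, CGATA in 23.5% against 20.8%, GAGAG in 17.6% against 23.3%, TATAAA in 20.6% against 32.9% and CACACA in 14.7% against 18.1%. The Zelda share thus stood above that of all regions in the first comparison and below it in the second, on 3 and 1 member regions. The DRE core TATCGATA, which contains CGATA, was in 1 region (2.22%, against 3.67%), the one downstream of br and 80 bp from CG3740.

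Exact matches to binding letters of the ecdysone receptors themselves were rare in these windows, as they were over all regions. The nuclear receptor half-site AGGTCA was in 1 of 45 (2.22%, against 4.01%), the weak Hr4 region at rank 4782. The FTZ-F1 site CAAGGTCA, which contains the half-site, was in 0 of 45 and in 0.258% of all regions. The palindrome of the ecdysone response element, GGTCANTGACC with N for any base, was in 0 of 45 and in 0 of the 5035. Only this exact form was searched, so an imperfect element could not match, and 0 over the whole list leaves nothing to compare. A match is a run of letters and not a site, and no match covers only these letters in these windows. Median GC content was 34.3% in the member windows and 35.8% over all regions.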

How the data were processed

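Per the deposited notes and the labels, the authors called regions on dm6 for each replicate and for the pooled reads against 1 control file per build, and derived the thresholded list with the irreproducible discovery rate. The sources used here do not name the aligner or the caller. The signal in the deposited lists is the authors' score per region. It was used within a list, and regions were ranked by it. The dm3 lists were not used here. Coordinates are 1-based. Genes and start sites came from Ensembl release 115 on Release 6, and sequence from the RefSeq genome of that assembly.

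A summit within 500 bp of a start site was classed as TSS. Start sites of 1 gene within 300 bp formed 1 promoter. Backing required the summit of one of a replicate's 5035 strongest regions to lie inside the thresholded region. Python 3.11.15 with numpy 2.4.6 was used, and classification was tested on planted summits. The 10 members, the pathway lists and the motifs were chosen with earlier results of these data known. All members were named, along with the 3 genes of each pathway list with the strongest TSS region and the 3 genes most like the member with the most regions. Sequences by rule were the TSS regions of members not on 2R. The alternatives tried were a higher-signal list, other distances and overlaps, and each replicate left out.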

Additional observations from a re-analysis of the deposited data

How the results depend on the processing

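Of 39 alternatives to the 5 counts, 33 stayed within 1.5 times the reported count. The 45 regions became 23 in the higher-signal part of the list (signal at or above its median). With 1 replicate left out, counting regions that both others backed, they became 26 without replicate 1, 34 without replicate 2 and 24 without replicate 3. The genes with a region fell from 10 to 9 in each case, Eip93F being the gene lost. Leaving a replicate out changed only the backing asked for: the list was not made anew, and its regions still come from all 3 replicates pooled. The genes with a region numbered 8 in the higher-signal part. The 2 genes with a TSS region stayed at 2 with any replicate left out and became 3 with a TSS distance of 1000 bp, where EcR was added. The 2 promoters became 4 at that distance, with EcR promoter 2 and usp promoter 1 added. The 22 regions backed by all 3 replicates became 35 with the whole replicate lists, and 26, 34 and 24 without replicates 1, 2 and 3, where backing by the remaining 2 sufficed. The stricter list lowers, and the wider distance and looser backing raise, these counts by construction. Depth is unknown, so a promoter with no listed summit is one that did not reach a list, and absence of binding cannot be read from it. Groups of 3 were not screened for single outlying samples.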
